A study of Arabidopsis thaliana with 39 samples.

Results

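Shoot apices of the pol2a mutant of Arabidopsis thaliana were compared with apices of the wild type Col0 by RNA sequencing. The libraries were chosen by their labelled tissue and genotype, 3 of pol2a and 3 of Col0, and made up 6 of the 39 libraries of the series. Seedlings were grown for 7 days with 16 h of light per day, and 30 dissected apices entered each sample. Apices labelled ld pol2a and ld, 3 libraries each, carry in addition a mutation of LUMINIDEPENDENS (LD), a nuclear protein of the autonomous flowering pathway, and serve below as a second pair of genotypes that differ in pol2a and share no library with the first. Which alleles of pol2a and ld were used, and in which genetic background, is not stated in these labels. The design text calls the replicates biological, but no source used here says that they were sown separately, so the p-values speak of differences among these libraries, whose spread may be technical.

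DNA polymerase epsilon copies the leading strand at the replication fork, and POL2A encodes its catalytic subunit. Plants with a weakened polymerase epsilon carry stalled forks. Stalled or broken forks are sensed by the kinases ATR and ATM, which activate the plant transcription factor SOG1. SOG1 turns on cyclin-dependent kinase inhibitors of the SIAMESE-RELATED (SMR) family, related NAC factors, and repair genes. In the shoot apex, dividing meristem cells give rise to leaf primordia and later to flowers, and the MADS-box repressor FLC delays that switch by holding down SOC1 and FT.

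The pol2a libraries held 13281803 to 14478320 counts and the Col0 libraries 13582261 to 14659086. The 6 apex libraries of the ld pair held 11954021 to 21095025. Levels are given as CPM, a gene's count relative to its TMM-scaled library total, a scaling that sets typical genes equal between libraries, and values stand in the order of libraries 1, 2 and 3. The value after ± is the standard error for a log2 fold change and the SD over 3 libraries for a mean. Because no spike-in was added, a change is relative to the rest of the library. On the first principal components, pol2a library 1 lay apart from the other pol2a libraries (-34.4 against -8.35 and -7.98 on the first), and Col0 library 3 from the other Col0 libraries (42.6 against 13.6 and -4.29 on the third). Of 11 root markers, 7 stayed under 1 CPM in all 6 libraries, including the root hair genes RHD6, RSL4 and EXPA7, and the markers summed to 4.35 to 5.60 CPM in pol2a and 4.17 to 7.25 CPM in Col0 apices. Of 19 meristem and boundary genes, STM, KNAT1 and PNY were read in every library, while 5 stayed under 1 CPM in all 6, among them WUS and CLV3. STM, KNAT1 and PNY were also called higher in pol2a, as given below.

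In pol2a apices, 693 of 18705 genes were higher than in Col0 and 436 were lower (edgeR quasi-likelihood test, Benjamini-Hochberg adjusted p below 0.05), which is 3.7% and 2.33% of the genes tested, 6.04% together. The higher genes moved further, with a median log2 fold change of 0.98 and 330 past 2-fold, while the lower ones had a median of -0.58 and 122 past 2-fold. The median over all genes was -0.01. The libraries of the groups did not overlap for 692 of the higher and 436 of the lower genes. That was counted only among genes already called in these same libraries. The share over all genes tested was not counted, so it adds nothing to the calls. The same holds wherever the groups are said below to stand apart for a called gene. Apices are mixed tissue, so fewer cells of a type and less RNA per cell cannot be told apart here.

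These counts changed with the libraries used. Leaving out pol2a library 1 gave 402 higher and 238 lower genes, pol2a library 2 gave 350 and 177, and pol2a library 3 gave 591 and 331. Leaving out Col0 library 1, 2 or 3 gave 362 and 176, 328 and 187, or 458 and 345. With the spread estimated from the 6 compared libraries alone, edgeR called 466 higher and 227 lower.

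POL2A itself (AT1G08260, chromosome 1, 2588854 to 2606892, plus strand, 50 distinct annotated exon intervals, TAIR10.1) was at 20.8, 28.4 and 30.7 CPM in pol2a libraries, against 19.99, 23.7 and 13.7 CPM in Col0 libraries. The groups overlapped (log2 fold change 0.48 ± 0.30, edgeR adjusted p = 0.411), and since the allele is not given, the level checks no label. LD was at 11.2, 18.4 and 18.5 CPM in pol2a libraries, against 17.57, 21.4 and 14.7 CPM in Col0 libraries, also overlapping (log2 fold change -0.15 ± 0.29, edgeR adjusted p = 0.826). Genes within 1 Mb of POL2A were called in 27 of 450 cases (6%), and the 5 nuclear chromosomes ranged from 5.78% to 6.42%.

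Several of the induced damage-response genes carry the spaced palindrome that SOG1 is known to bind, CTTNNNNNNNAAG, close to their annotated start. The windows of 5 genes whose motif lies wholly upstream are shown because these genes carry the response described next. Sequences are from the RefSeq TAIR10.1 genome, written 5′ to 3′ on the gene's strand, with the 6 fixed bases in capitals.
ANAC044 (chr3:228990-229042, plus strand): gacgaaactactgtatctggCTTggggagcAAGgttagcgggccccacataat
SMR7 (chr3:10231578-10231630, minus strand): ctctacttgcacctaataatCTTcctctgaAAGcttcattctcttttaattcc
SMR4 (chr5:442241-442293, minus strand): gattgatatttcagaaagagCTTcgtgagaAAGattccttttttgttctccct
PARP2 (chr4:1049650-1049702, plus strand): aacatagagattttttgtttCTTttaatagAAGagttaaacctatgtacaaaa
GR1 (chr3:19325950-19326002, plus strand): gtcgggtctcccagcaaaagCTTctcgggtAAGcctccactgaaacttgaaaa
The motif began 43 bases before the annotated start in SMR7, 65 in ANAC044 and GR1, 86 in SMR4 and 96 in PARP2.

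Windows from 250 bases before to 50 after the annotated start were searched for this motif, which reads the same on both strands. It was present in 4 of the 7 called members of the checkpoint list, in 4 of the 12 called repair genes and in 1 of the 3 called nucleotide supply genes. Of all 18543 windows of tested nuclear genes, 10.7% held it, as did 12% of the 683 nuclear genes called higher and 10.3% of the 436 called lower. A match describes the letters and not a bound site.

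DNA damage checkpoint genes rose in pol2a apices, led by the cell cycle inhibitors of the SMR family. Of 12 such genes tested, 7 were higher and 0 lower, with a median log2 fold change of 1.03. The count was 6 to 7 when 1 library was left out and 5 to 7 under the other settings. SMR7, an inhibitor of cyclin-dependent kinases, was at 21.0, 16.1 and 17.8 CPM in pol2a libraries, against 0.303, 0.414 and 0.302 CPM in Col0 libraries. Every pol2a library was far above every Col0 library (log2 fold change 5.71 ± 0.23, edgeR adjusted p = 1.75e-08). SMR4, of the same family, was at 4.27, 3.13 and 4.37 CPM in pol2a libraries, against 0.530, 0.552 and 0.755 CPM in Col0 libraries, again without overlap (log2 fold change 2.67 ± 0.29, edgeR adjusted p = 1.80e-04). SMR5 was nearly absent from the wild type, with 94 reads over the 3 pol2a libraries, against 3 over the 3 Col0 libraries. SMR7 and SMR4 were under 1 CPM in every Col0 and ld library. Such genes, and ANAC085 below, may have passed the filter on low counts only through the libraries carrying pol2a. The share of tested genes called is therefore no support.

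The SOG1-related NAC factors followed. ANAC044, which slows entry into mitosis after damage, was at 18.1, 16.2 and 14.4 CPM in pol2a libraries, against 2.196, 1.45 and 1.43 CPM in Col0 libraries. All pol2a libraries were above all Col0 libraries (log2 fold change 3.26 ± 0.25, edgeR adjusted p = 7.46e-06). Its relative ANAC085 had 34 reads over the 3 pol2a libraries, against 1 over the 3 Col0 libraries. WEE1, a kinase that holds the cycle in S phase, was at 10.2, 11.4 and 12.4 CPM in pol2a libraries, against 4.47, 4.69 and 3.02 CPM in Col0 libraries (log2 fold change 1.48 ± 0.20, edgeR adjusted p = 0.00119). CYCB1;1, the B-type cyclin that accumulates in damaged cells, averaged 26.9 ± 4.28 CPM in pol2a and 18.8 ± 2.07 CPM in Col0 apices (SD, n = 3; edgeR adjusted p = 0.0355).

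SOG1 itself and the kinases above it did not pass the test. SOG1 averaged 17.45 ± 0.629 CPM in pol2a and 14.6 ± 1.32 CPM in Col0 apices, with a log2 fold change of 0.25. ATM averaged 19.1 ± 1.98 CPM in pol2a and 22.9 ± 4.24 CPM in Col0 apices, and ATR 6.59 ± 1.53 CPM in pol2a and 6.28 ± 1.07 CPM in Col0 apices, with log2 fold changes of -0.26 and 0.07. SIM and SMR1, which act in endoreduplication during normal development, had log2 fold changes of -0.49 and 0.58.

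**Figure D1:**
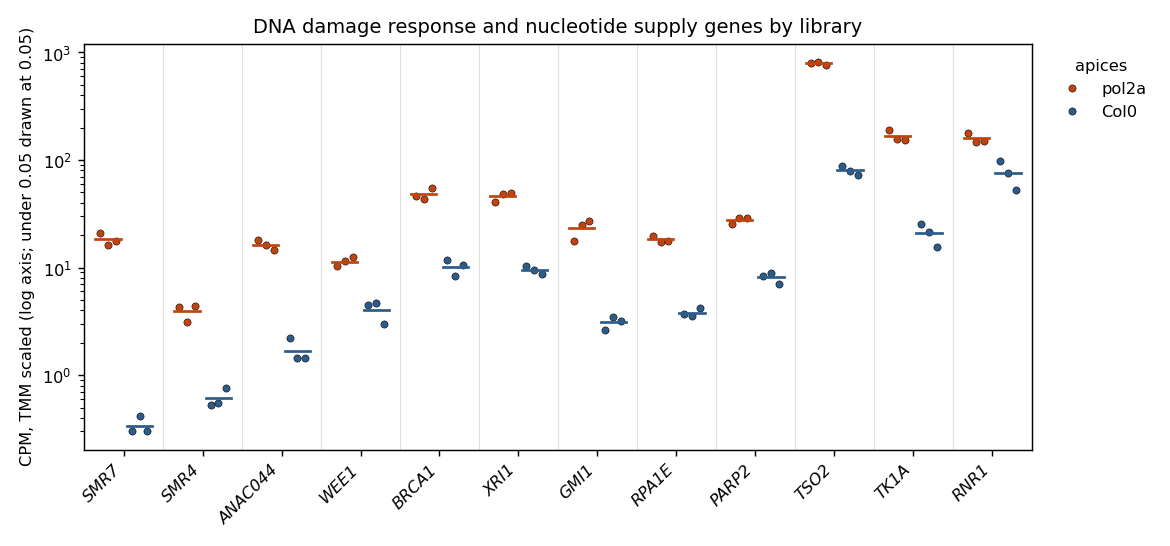
CPM (log axis) of 12 genes of the DNA damage response and of nucleotide supply in each of the 3 pol2a libraries (left of each pair) and the 3 Col0 libraries (right); points are libraries and bars are means. For each gene every pol2a library lies above every Col0 library, from SMR7 (16.1 to 21.0 CPM in pol2a, 0.302 to 0.414 CPM in Col0) to TSO2 (772 to 808 CPM in pol2a, 73.0 to 87.7 CPM in Col0).

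Genes that supply deoxynucleotides rose with them. TSO2, a small subunit of ribonucleotide reductase, was at 803, 808 and 772 CPM in pol2a libraries, against 87.7, 79.1 and 73.0 CPM in Col0 libraries. The libraries of each group lay close together and far from the other group (log2 fold change 3.31 ± 0.13, edgeR adjusted p = 1.75e-08). TK1A, a thymidine kinase of the salvage route, was at 189, 158 and 155 CPM in pol2a libraries, against 25.2, 21.4 and 15.6 CPM in Col0 libraries (log2 fold change 3.01 ± 0.16, edgeR adjusted p = 2.59e-07). RNR1, the large reductase subunit, was at 179.6, 147 and 149.6 CPM in pol2a libraries, against 97.4, 76.1 and 52.8 CPM in Col0 libraries (log2 fold change 1.07 ± 0.23, edgeR adjusted p = 0.0181), a call that was lost without pol2a library 1, Col0 library 2 or Col0 library 3. Their paralogs RNR2A and TK1B, with log2 fold changes of -0.21 and -0.31, did not pass, so 3 of 5 genes were called.

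Among DNA repair genes, 12 of 22 were higher and 0 lower, with a median of 0.82. XRI1, needed for repair and meiosis, was at 40.5, 47.8 and 49.3 CPM in pol2a libraries, against 10.3, 9.59 and 8.68 CPM in Col0 libraries. No library overlapped (log2 fold change 2.27 ± 0.15, edgeR adjusted p = 2.39e-06). BRCA1, of homologous recombination, was at 46.0, 43.6 and 54.5 CPM in pol2a libraries, against 11.8, 8.28 and 10.6 CPM in Col0 libraries (log2 fold change 2.23 ± 0.19, edgeR adjusted p = 2.66e-05). RPA1E, a single-strand binding subunit, was at 19.7, 17.39 and 17.7 CPM in pol2a libraries, against 3.71, 3.52 and 4.23 CPM in Col0 libraries (log2 fold change 2.26 ± 0.13, edgeR adjusted p = 5.27e-07).

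PARP2, a poly(ADP-ribose) polymerase, was at 25.5, 29.0 and 28.9 CPM in pol2a libraries, against 8.33, 8.90 and 7.10 CPM in Col0 libraries (log2 fold change 1.78 ± 0.13, edgeR adjusted p = 6.19e-06). GMI1, a gamma-irradiation-induced gene with an SMC hinge domain, was at 17.58, 24.7 and 27.3 CPM in pol2a libraries, against 2.65, 3.45 and 3.17 CPM in Col0 libraries (log2 fold change 2.90 ± 0.27, edgeR adjusted p = 4.45e-05). Both were clear of Col0 in every library. The called repair genes BARD1, RAD54, RAD17, PARP1, GR1 and AGO2 had log2 fold changes between 0.50 (PARP1) and 1.57 (GR1). AGO2 binds small RNAs made at breaks.

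The other 10 repair genes did not pass. The end-joining genes KU70, KU80 and LIG4 had log2 fold changes of -0.09, -0.04 and -0.10, and TEB, the polymerase theta of alternative end joining, 0.02. The mismatch repair gene MSH6 had -0.30. LIG1, RAD5A, FAN1 and MUS81 lay between -0.15 and 0.31.

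Replication genes moved less. Of 20 polymerase and licensing genes tested, 3 were higher and 0 lower, though 19 of the 20 had a positive log2 fold change (median 0.38). PCNA1, the sliding clamp, was at 53.1, 41.6 and 42.1 CPM in pol2a libraries, against 28.5, 20.15 and 21.5 CPM in Col0 libraries (log2 fold change 0.96 ± 0.16, edgeR adjusted p = 0.00476). CDC45, of the replicative helicase, was at 21.4, 23.9 and 26.5 CPM in pol2a libraries, against 14.1, 11.6 and 10.5 CPM in Col0 libraries (log2 fold change 0.99 ± 0.15, edgeR adjusted p = 0.00272). ORC6, of the origin recognition complex, was at 8.55, 6.79 and 8.61 CPM in pol2a libraries, against 3.41, 4.35 and 3.17 CPM in Col0 libraries (log2 fold change 1.13 ± 0.19, edgeR adjusted p = 0.00407). In none of the 3 genes did the genotypes overlap.

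The MCM2 to MCM7 helicase genes had log2 fold changes between -0.01 and 0.36, none past the threshold. DPB2, the second subunit of polymerase epsilon, had 0.68, and ICU2 and POLD1, the catalytic subunits of polymerases alpha and delta, 0.26 and 0.17. POL2B, the other catalytic subunit gene of polymerase epsilon, stayed under 1 CPM in all 6 libraries. Without Col0 library 1, or by DESeq2, 5 genes of this list were called.

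Of 12 histone H3 and chromatin assembly genes, 4 were higher and 0 lower (median 0.39). They were 2 of the 5 replication-dependent H3.1 genes, HTR1 and HTR2, the centromeric histone gene HTR12 and FAS1, of the chromatin assembly factor. HTR2 was at 359, 302 and 275 CPM in pol2a libraries, against 156, 139 and 130.1 CPM in Col0 libraries (log2 fold change 1.14 ± 0.14, edgeR adjusted p = 4.18e-04), with no overlap. FAS1 was at 30.6, 29.1 and 30.4 CPM in pol2a libraries, against 18.9, 16.9 and 14.6 CPM in Col0 libraries (log2 fold change 0.84 ± 0.19, edgeR adjusted p = 0.021). The H3.1 genes HTR3, HTR9 and HTR13 had log2 fold changes of 0.26, 0.33 and 0.45 with overlapping libraries and did not pass. The H3.3 genes HTR4, HTR5 and HTR8 did not pass either (0.25, -0.28 and 0.13). The H3 genes are near-identical in their coding parts, so the split of reads among them is uncertain. Without Col0 library 2 the count was 2, and FAS1 was also lost without pol2a library 1 or 2 or Col0 library 3.

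A minority of mitotic genes rose. Of 19, 5 were higher and 0 lower, and 15 had a positive log2 fold change (median 0.25). The B1-type cyclin-dependent kinase CDKB1;1 was at 33.3, 25.8 and 25.3 CPM in pol2a libraries, against 13.4, 13.6 and 13.3 CPM in Col0 libraries (log2 fold change 1.07 ± 0.12, edgeR adjusted p = 3.46e-04), and CDKB1;2 averaged 22.4 ± 2.68 CPM in pol2a and 12.1 ± 1.22 CPM in Col0 apices (SD, n = 3). CDKB2;1, CYCB1;3 and AUR1 were called with smaller changes (0.61, 0.48 and 0.45). The cytokinesis genes KN, HIK and PLE had -0.08, -0.24 and -0.43 and did not pass. This count was 2 without Col0 library 1 or 2, and 3 without any other library. With the replicate number as a block, 1 gene of the list was lower.

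The maintenance DNA methyltransferase genes rose, and most of the other silencing genes did not pass. CMT3, the CHG methyltransferase, was at 99.8, 79.0 and 78.2 CPM in pol2a libraries, against 53.4, 43.7 and 42.3 CPM in Col0 libraries (log2 fold change 0.88 ± 0.14, edgeR adjusted p = 0.00367). MET1, which copies CG methylation after replication, was at 133, 132 and 135 CPM in pol2a libraries, against 85.6, 81.4 and 64.0 CPM in Col0 libraries (log2 fold change 0.79 ± 0.14, edgeR adjusted p = 0.00563). ATXR6, an H3K27 monomethyltransferase active at replication, was at 4.03, 3.88 and 2.85 CPM in pol2a libraries, against 1.74, 1.79 and 1.81 CPM in Col0 libraries (log2 fold change 1.00 ± 0.19, edgeR adjusted p = 0.00992). No library of these genes overlapped between groups.

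They were 3 of 19 genes tested on the list (0 lower, median 0.00). VIM2, a methylcytosine-binding protein gene, was at 18.0, 17.2 and 15.5 CPM in pol2a libraries, against 4.92, 4.28 and 4.15 CPM in Col0 libraries (log2 fold change 1.92 ± 0.13, edgeR adjusted p = 2.31e-06). It neighbours the closely similar VIM4, so its reads are uncertain. HDA18, a histone deacetylase gene, was at 32.0, 31.2 and 30.1 CPM in pol2a libraries, against 2.80, 2.28 and 1.66 CPM in Col0 libraries (log2 fold change 3.79 ± 0.16, edgeR adjusted p = 3.30e-08). Of 13 Polycomb and vernalization genes, 1 was lower: VRN5, a vernalization protein gene, was at 18.6, 22.02 and 18.8 CPM in pol2a libraries, against 31.3, 29.3 and 27.6 CPM in Col0 libraries (log2 fold change -0.57 ± 0.13, edgeR adjusted p = 0.0275). That call was lost without Col0 library 1 or 2, or without pol2a library 1 or 3. Of the loci silenced by DNA methylation, FWA had 0 reads in all 6 libraries, and SDC and QQS did not pass (0.20 and 0.31).

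**Figure D2:**
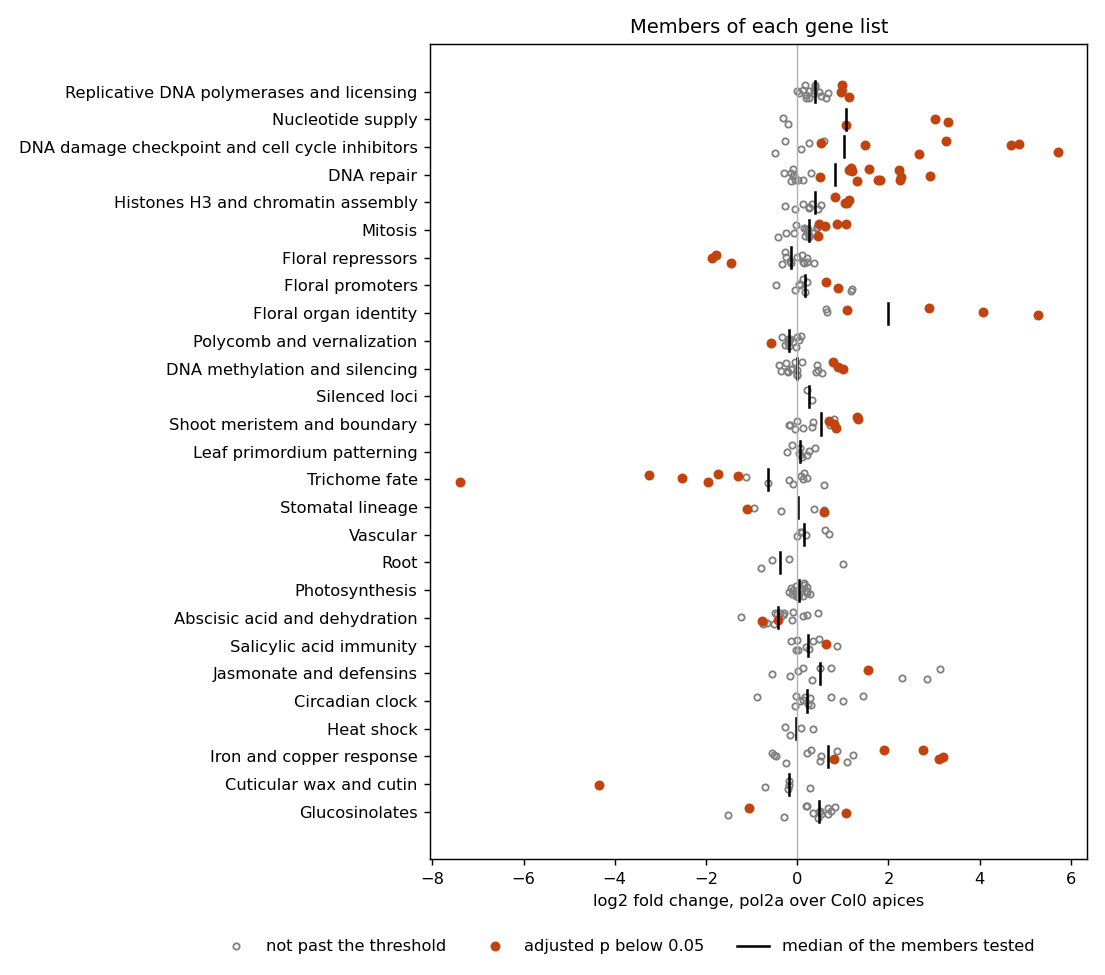
Log2 fold change of pol2a over Col0 apices for each tested member of the 27 gene lists; filled points passed an adjusted p of 0.05 in edgeR and black bars are medians over the members tested. SMR7 of the checkpoint list reaches 5.71 and TSO2 of nucleotide supply 3.31, GL2 of the trichome list -3.26, and the photosynthesis genes stay between -0.17 (LHCA4) and 0.28 (RBCS1B).

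In pol2a apices 3 of 15 floral repressors were lower, while 2 of 11 floral promoters were higher. Of 11 floral organ genes written, 6 passed the filter on low counts and 4 were higher. FLC (AT5G10140, chromosome 5, 3173382 to 3179448, minus strand) was at 1.69, 2.09 and 0.972 CPM in pol2a libraries, against 5.68, 4.62 and 5.89 CPM in Col0 libraries. Every pol2a library was below every Col0 library (log2 fold change -1.77 ± 0.34, edgeR adjusted p = 0.0102). Its relatives MAF4 and MAF5 were at 0.645, 0.448 and 0.694 CPM in pol2a libraries, against 1.29, 1.52 and 2.11 CPM in Col0 libraries, and at 0.484, 0.522 and 0.555 CPM in pol2a libraries, against 1.44, 1.66 and 2.72 CPM in Col0 libraries, without overlap (log2 fold changes -1.45 and -1.87, edgeR adjusted p = 0.0159 and 0.00605). These were the 3 lower genes of 15 floral repressors tested, and 0 were higher (median -0.14). FLC lies wholly within an annotated antisense RNA, whose reads cannot be told apart from its own. FLM, MAF2 and SVP did not pass (-0.01, 0.14 and -0.14). The MAF4 call was lost without pol2a library 2 or Col0 library 3.

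SOC1, the MADS-box integrator that FLC represses, was at 34.4, 37.3 and 35.9 CPM in pol2a libraries, against 17.8, 18.0 and 22.2 CPM in Col0 libraries. The groups stood apart (log2 fold change 0.89 ± 0.15, edgeR adjusted p = 0.00397). AGL24, its partner, was at 10.5, 9.18 and 8.75 CPM in pol2a libraries, against 6.28, 5.80 and 6.34 CPM in Col0 libraries (log2 fold change 0.62 ± 0.14, edgeR adjusted p = 0.023), a call lost without any 1 of the libraries other than pol2a library 3. FT, the leaf-made florigen, had 0 reads in all 6 libraries, which allows up to 3 counts over the libraries of a group. LFY and FUL averaged 1.61 ± 0.436 CPM in pol2a and 0.704 ± 0.155 CPM in Col0 apices, and 1.35 ± 0.279 CPM in pol2a and 0.587 ± 0.0304 CPM in Col0 apices, and did not pass. Of 11 promoters tested, 2 were higher and 0 lower.

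Floral organ identity genes were present at low levels. AG, which specifies stamens and carpels, had 13, 20 and 18 reads in pol2a libraries, against 1, 0 and 0 reads in Col0 libraries. SEP1 had 22, 15 and 18 reads in pol2a libraries, against 2, 1 and 0 reads in Col0 libraries, and SEP2 13, 18 and 22 reads in pol2a libraries, against 0, 6 and 1 reads in Col0 libraries. All pol2a libraries exceeded all Col0 libraries in these 3 genes. SEP3, a cofactor of the floral organ factors, was at 6.61, 7.84 and 9.79 CPM in pol2a libraries, against 2.57, 4.28 and 4.45 CPM in Col0 libraries (log2 fold change 1.099 ± 0.23, edgeR adjusted p = 0.0155). Of 11 genes written, 6 passed the filter on low counts and 4 were called higher. AG, SEP1 and SEP2 were near 0 in Col0 and in ld apices. They could pass that filter only through the libraries carrying pol2a, so the share of tested genes called is no support. The other 5 stayed under 1 CPM in all 6 libraries. The count was 2 without Col0 library 1, and the SEP2 and SEP3 calls were each lost without 3 of the 6 libraries.

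**Figure D3:**
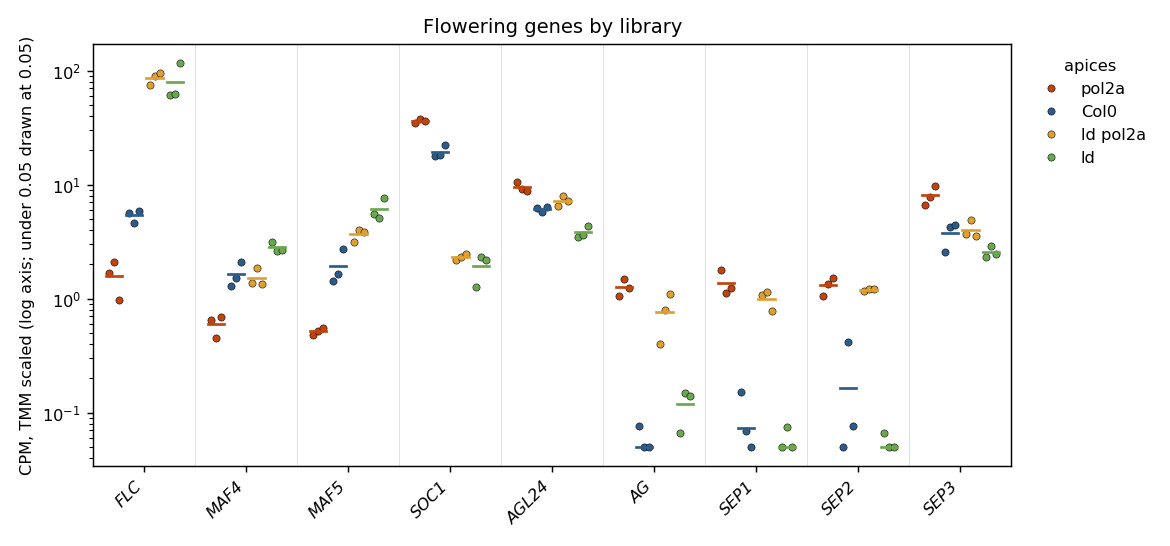
CPM (log axis) of flowering genes in apices of, from left to right for each gene, pol2a, Col0, ld pol2a and ld; points are the 3 libraries of a group and bars their means, and values under 0.05 are drawn at 0.05. FLC lies at 0.972 to 2.09 CPM in pol2a and 4.62 to 5.89 CPM in Col0, and at 61.4 CPM or more in every ld pol2a and ld library.

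Genes of the meristem and of organ boundaries were higher where they passed. STM, the KNOX factor that keeps meristem cells undifferentiated, was at 13.1, 9.78 and 14.0 CPM in pol2a libraries, against 3.86, 5.31 and 5.51 CPM in Col0 libraries (log2 fold change 1.33 ± 0.19, edgeR adjusted p = 0.00147). LOB, a boundary factor, was at 10.2, 9.10 and 8.75 CPM in pol2a libraries, against 3.71, 3.11 and 4.45 CPM in Col0 libraries (log2 fold change 1.31 ± 0.19, edgeR adjusted p = 0.0014). PNY, the BEL1-type partner of KNOX proteins, was at 20.7, 20.22 and 20.3 CPM in pol2a libraries, against 13.3, 10.7 and 10.8 CPM in Col0 libraries (log2 fold change 0.81 ± 0.11, edgeR adjusted p = 0.00104). Each of these was clear of Col0 in every library.

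LSH4, another boundary gene, was at 26.4, 22.1 and 19.4 CPM in pol2a libraries, against 16.1, 14.0 and 11.6 CPM in Col0 libraries (log2 fold change 0.70 ± 0.16, edgeR adjusted p = 0.0222). KNAT1 averaged 9.70 ± 0.585 CPM in pol2a and 5.36 ± 1.32 CPM in Col0 apices (SD, n = 3; log2 fold change 0.85, edgeR adjusted p = 0.0496). The receptor genes CLV1 and CLV2 and the epidermal factor gene ATML1 did not pass (-0.04, -0.02 and -0.15), and WUS and CLV3 stayed under 1 CPM. In all, 5 of 14 genes tested were higher and 0 lower (median 0.53). The list summed to 315 to 326 CPM in pol2a and 283 to 308 CPM in Col0, and the part of cell composition in these calls was not tested. The count was 3 without pol2a library 1 or 2, or without Col0 library 2 or 3. Leaf primordium genes showed 0 calls of 9 by edgeR, by DESeq2 and without any 1 library, and the smallest p was that of FIL (log2 fold change 0.22 ± 0.09, edgeR adjusted p = 0.198).

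Trichome fate genes and some enzymes of the cuticle, the waxy cover of the epidermis, fell in pol2a apices. GL2, a homeodomain factor of trichome growth, was at 1.45, 2.01 and 3.26 CPM in pol2a libraries, against 19.2, 17.1 and 29.1 CPM in Col0 libraries. Every pol2a library was below every Col0 library by a wide margin (log2 fold change -3.26 ± 0.29, edgeR adjusted p = 2.97e-05). MYB23, a trichome MYB factor, had 1, 0 and 0 reads in pol2a libraries, against 71, 77 and 81 reads in Col0 libraries, with a summed ratio of Col0 to pol2a of 225-fold (95% exact interval 40.0 to 8921, counting error only). GL1, the MYB factor that starts trichome fate, was at 0.887, 0.448 and 0.833 CPM in pol2a libraries, against 2.80, 2.62 and 3.02 CPM in Col0 libraries (log2 fold change -1.95 ± 0.26, edgeR adjusted p = 0.00101). TTG2, a WRKY factor, was at 4.03, 3.13 and 3.05 CPM in pol2a libraries, against 9.24, 8.49 and 7.32 CPM in Col0 libraries (log2 fold change -1.30 ± 0.17, edgeR adjusted p = 9.83e-04).

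TRY and CPC, small MYB proteins that limit trichome number, were lower as well, averaging 0.127 ± 0.121 CPM in pol2a and 0.770 ± 0.376 CPM in Col0 apices, and 0.728 ± 0.140 CPM in pol2a and 2.44 ± 0.226 CPM in Col0 apices. The TRY call was lost with the replicate number as a block. Thus 6 of 15 trichome genes were lower and 0 higher (median -0.65; 5 lower with the block). The partners of GL1, GL3, EGL3 and TTG1, had log2 fold changes of 0.22, 0.14 and 0.08 and did not pass. MYB106, which acts in trichomes and in cutin formation and is named here after its values were seen, was at 5.08, 4.25 and 2.85 CPM in pol2a libraries, against 13.3, 10.4 and 9.89 CPM in Col0 libraries (log2 fold change -1.47 ± 0.19, edgeR adjusted p = 8.70e-04). An antisense RNA spans 80.3% of MYB106. The trichome list summed to 76.6 to 91.4 CPM in pol2a and 109 to 135 CPM in Col0, and whether pol2a apices held fewer trichome cells was not tested.

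Among cuticle genes the falls were selective. CER1, an enzyme of wax alkane synthesis, was at 5.24, 2.84 and 2.08 CPM in pol2a libraries, against 77.1, 71.6 and 55.3 CPM in Col0 libraries (log2 fold change -4.34 ± 0.25, edgeR adjusted p = 6.07e-07). CYP86A4, a fatty acid hydroxylase, was at 1.29, 1.04 and 1.25 CPM in pol2a libraries, against 33.3, 22.4 and 24.4 CPM in Col0 libraries (log2 fold change -4.47 ± 0.22, edgeR adjusted p = 1.60e-07). CYP77A6, also a cytochrome P450 of cutin synthesis, was at 4.03, 2.31 and 2.01 CPM in pol2a libraries, against 20.8, 14.0 and 17.59 CPM in Col0 libraries (log2 fold change -2.66 ± 0.28, edgeR adjusted p = 1.32e-04). In each the groups were far apart.

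KCS5, an elongase of very long chain fatty acids, was at 16.5, 20.15 and 16.2 CPM in pol2a libraries, against 63.1, 59.8 and 74.1 CPM in Col0 libraries (log2 fold change -1.898 ± 0.14, edgeR adjusted p = 5.89e-06). Of 6 wax and cutin genes tested on the list, CER1 alone was called with all libraries, and the median was -0.19. CER3, KCS6 and LACS2 had log2 fold changes of -0.20, -0.18 and -0.19. DCR, an acyltransferase of cutin, averaged 132 ± 45.6 CPM in pol2a and 214 ± 44.3 CPM in Col0 apices. With the replicate number as a block, without pol2a library 1, or by DESeq2, 2 genes of the list were called lower.

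Further genes fell almost to nothing. GLC, which encodes an acyltransferase, had 0, 1 and 1 reads in pol2a libraries, against 244, 203 and 148 reads in Col0 libraries, with a summed ratio of Col0 to pol2a of 292-fold (95% exact interval 80.5 to 2418, counting error only). The gene at AT5G33370, chromosome 5, 12602468 to 12604832, minus strand, had 0, 1 and 0 reads in pol2a libraries, against 418, 395 and 365 reads in Col0 libraries, a summed ratio of 1157-fold (95% exact interval 207 to 45732, counting error only). The gene at AT2G33850, chromosome 2, 14320865 to 14322082, minus strand, was at 0.645, 0.373 and 0.694 CPM in pol2a libraries, against 169, 150.0 and 194 CPM in Col0 libraries (log2 fold change -8.20 ± 0.35, edgeR adjusted p = 3.30e-08). PME61, a pectin methylesterase gene, was at 0.161, 0.597 and 0.208 CPM in pol2a libraries, against 11.7, 10.9 and 15.0 CPM in Col0 libraries (log2 fold change -5.24 ± 0.35, edgeR adjusted p = 2.31e-06).

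PRP2, a proline-rich cell wall protein gene, was at 29.4, 22.1 and 21.7 CPM in pol2a libraries, against 128, 109 and 146 CPM in Col0 libraries (log2 fold change -2.39 ± 0.17, edgeR adjusted p = 5.86e-06). SAT32, a salt tolerance gene, was at 7.01, 7.84 and 4.93 CPM in pol2a libraries, against 27.7, 31.3 and 25.4 CPM in Col0 libraries (log2 fold change -2.097 ± 0.19, edgeR adjusted p = 3.79e-05). Both stood apart. CORI3, a cystine lyase gene, was at 2.02, 2.46 and 1.18 CPM in pol2a libraries, against 9.16, 7.11 and 4.83 CPM in Col0 libraries (log2 fold change -1.902 ± 0.36, edgeR adjusted p = 0.00967). CYP71B22, a cytochrome P450 gene, was at 2.98, 1.49 and 5.07 CPM in pol2a libraries, against 6.74, 6.76 and 15.8 CPM in Col0 libraries (log2 fold change -1.60 ± 0.41, edgeR adjusted p = 0.0384). Its call was lost without pol2a library 1 or 2, without Col0 library 3, without the filter on low counts and with the 6 compared libraries alone.

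In the ld pair 1 of the 15 trichome genes was higher and 2 were lower, where 18.3% and 15.8% of all genes tested were. The falls of the genes plotted did not recur at their size. GLC and KCS5 were called lower there with smaller changes, of -0.59 and -0.62 on the log2 scale. GL2 was at 18.6, 20.08 and 21.5 CPM in ld pol2a libraries, against 22.3, 26.3 and 33.8 CPM in ld libraries (log2 fold change -0.46 ± 0.23, edgeR adjusted p = 0.145). CER1 was at 56.2, 50.7 and 51.7 CPM in ld pol2a libraries, against 53.4, 49.4 and 57.6 CPM in ld libraries (log2 fold change -0.02 ± 0.20, edgeR adjusted p = 0.958). AT5G33370 was at 28.1, 24.96 and 26.6 CPM in ld pol2a libraries, against 30.6, 26.6 and 28.8 CPM in ld libraries (log2 fold change -0.11 ± 0.13, edgeR adjusted p = 0.525).

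The difference between the effects was itself tested, as the change of ld pol2a over ld less the change of pol2a over Col0. It passed for GL2 (2.80 ± 0.37, edgeR adjusted p = 0.002), CER1 (4.32 ± 0.32, edgeR adjusted p = 2.06e-05), CYP86A4 (4.47 ± 0.28, edgeR adjusted p = 5.78e-06), AT2G33850 (8.21 ± 0.41, edgeR adjusted p = 9.04e-07) and AT5G33370 (9.64 ± 0.35, edgeR adjusted p = 3.61e-08). Of the 15 trichome genes, 5 had a called positive difference and 0 a negative one, where 5.13% and 2.41% of all genes tested did. These tests share the pol2a and Col0 libraries with the falls they are set beside. CYP86A4, AT2G33850 and AT5G33370 were among the genes picked for the smallest p of this difference. That it passed for them restates that choice.

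**Figure D4:**
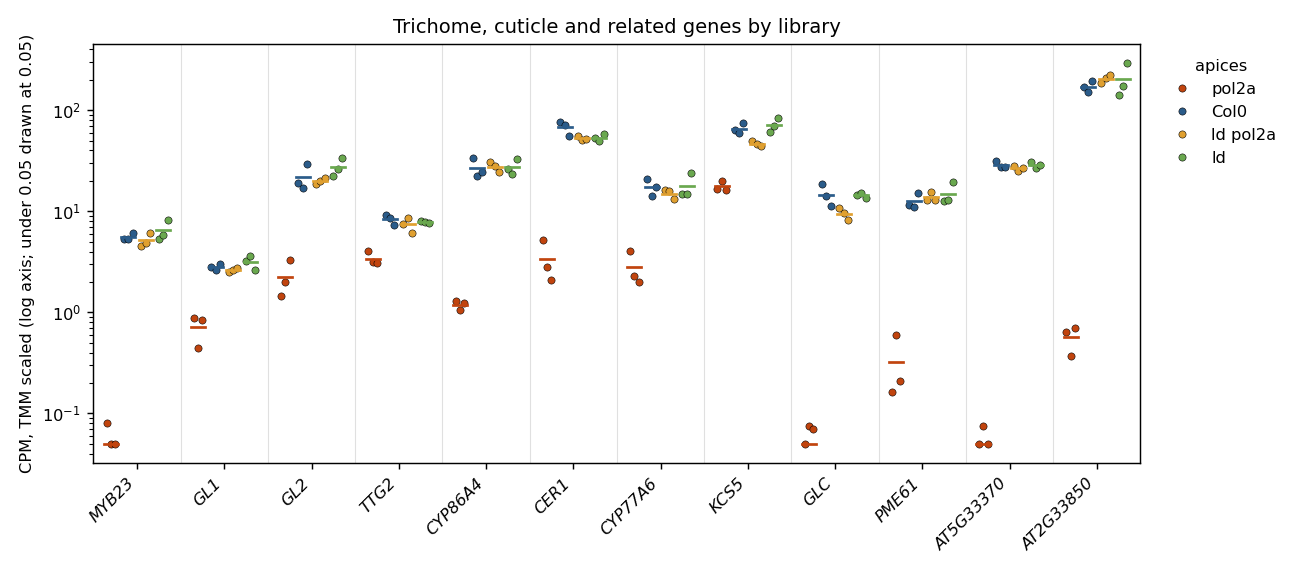
CPM (log axis) of trichome, cuticle and related genes in apices of, from left to right for each gene, pol2a, Col0, ld pol2a and ld; points are the 3 libraries of a group and bars their means, and values under 0.05 are drawn at 0.05. In every gene plotted the 3 pol2a libraries lie below the libraries of the other 3 genotypes.

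Of 6 stomatal genes, FAMA fell and TMM rose, in both pairs. FAMA, the factor of guard cell and myrosin cell fate, was at 7.58, 10.6 and 8.54 CPM in pol2a libraries, against 18.4, 19.7 and 19.1 CPM in Col0 libraries (log2 fold change -1.098 ± 0.16, edgeR adjusted p = 0.00148). In the ld pair it was at 3.42, 5.31 and 3.98 CPM in ld pol2a libraries, against 20.8, 19.5 and 19.9 CPM in ld libraries (log2 fold change -2.26 ± 0.16, edgeR adjusted p = 7.19e-06). TMM, a receptor of early stomatal cells, was at 98.3, 94.7 and 92.6 CPM in pol2a libraries, against 61.9, 61.0 and 66.1 CPM in Col0 libraries (log2 fold change 0.60 ± 0.16, edgeR adjusted p = 0.0421), a call lost without any 1 library. In ld pol2a over ld TMM had a log2 fold change of 0.45. MUTE and SPCH had log2 fold changes of -0.94 and 0.36. The list summed to 138 to 144 CPM in pol2a and 110 to 115 CPM in Col0.

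TGG1, the myrosinase that breaks down glucosinolates, was at 301, 430.2 and 565 CPM in pol2a libraries, against 849, 927 and 905 CPM in Col0 libraries (log2 fold change -1.05 ± 0.22, edgeR adjusted p = 0.017). Its call was lost without pol2a library 1 or 2 or Col0 library 2. In the ld pair it was at 216, 179 and 172 CPM in ld pol2a libraries, against 1436, 1311 and 866 CPM in ld libraries (log2 fold change -2.67 ± 0.24, edgeR adjusted p = 1.90e-05). ESM1, which steers the breakdown of glucosinolates, was at 11.6, 13.1 and 5.83 CPM in pol2a libraries, against 359, 289.6 and 241 CPM in Col0 libraries (log2 fold change -4.87 ± 0.26, edgeR adjusted p = 3.05e-07). In the ld pair ESM1 was at 25.7, 21.6 and 24.9 CPM in ld pol2a libraries, against 264, 236 and 268 CPM in ld libraries (log2 fold change -3.41 ± 0.24, edgeR adjusted p = 5.53e-06). CYP79F2, of glucosinolate synthesis, was at 9.68, 10.3 and 7.57 CPM in pol2a libraries, against 4.47, 4.14 and 4.53 CPM in Col0 libraries (log2 fold change 1.07 ± 0.21, edgeR adjusted p = 0.0114), and its call was lost without pol2a library 2 or Col0 library 2. Of 15 glucosinolate genes, 1 rose and 1 fell, with a median of 0.48. With the replicate number as a block, 4 rose and 1 fell.

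The iron-deficiency regulators of the bHLH Ib group rose in pol2a apices and were not higher in ld pol2a apices. In whole pol2a seedlings, described below, none of them was called higher. BHLH39 was at 3.63, 5.45 and 6.32 CPM in pol2a libraries, against 0.227, 1.104 and 0.302 CPM in Col0 libraries (log2 fold change 3.19 ± 0.46, edgeR adjusted p = 0.00172). BHLH38 was at 4.76, 5.90 and 5.14 CPM in pol2a libraries, against 0.454, 0.966 and 0.377 CPM in Col0 libraries (log2 fold change 3.10 ± 0.48, edgeR adjusted p = 0.00281). BHLH100 was at 2.096, 2.31 and 3.12 CPM in pol2a libraries, against 0.303, 0.483 and 0.302 CPM in Col0 libraries (log2 fold change 2.76 ± 0.31, edgeR adjusted p = 2.50e-04). BHLH101 was at 2.90, 3.28 and 3.40 CPM in pol2a libraries, against 0.757, 1.104 and 0.679 CPM in Col0 libraries (log2 fold change 1.899 ± 0.27, edgeR adjusted p = 0.00147). Pol2a and Col0 libraries did not overlap in any of the 4.

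In the ld pair BHLH100 was at 0.444, 0.430 and 0.578 CPM in ld pol2a libraries, against 2.80, 3.72 and 3.17 CPM in ld libraries (log2 fold change -2.72 ± 0.28, edgeR adjusted p = 5.20e-05), the opposite direction. The difference passed for BHLH39 (-5.13 ± 0.63, edgeR adjusted p = 0.00135), BHLH38 (-4.28 ± 0.65, edgeR adjusted p = 0.00398), BHLH100 (-5.48 ± 0.42, edgeR adjusted p = 2.51e-05) and BHLH101 (-4.58 ± 0.38, edgeR adjusted p = 4.80e-05). Of 16 iron and copper genes, 5 were higher and 0 lower in pol2a (median 0.67; 7 higher with the replicate number as a block), the fifth being the ferric reductase gene FRO3 (0.81). In ld pol2a over ld, 2 were higher and 10 lower, where 18.3% and 15.8% of all genes tested were. BHLH38 and BHLH39 are closely similar neighbours, so the split of reads between them is uncertain.

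Stress and hormone lists showed few calls. Of 17 abscisic acid and dehydration genes, 2 were lower and 0 higher (median -0.43). RD22, a dehydration-induced gene, was at 116, 115 and 67.7 CPM in pol2a libraries, against 185, 185 and 140.3 CPM in Col0 libraries (log2 fold change -0.77 ± 0.18, edgeR adjusted p = 0.0298). ABF4, a bZIP factor of abscisic acid signalling, was at 24.0, 21.4 and 19.6 CPM in pol2a libraries, against 31.3, 28.8 and 27.6 CPM in Col0 libraries (log2 fold change -0.43 ± 0.10, edgeR adjusted p = 0.031). Both calls were lost without Col0 library 1 or 2, and ABF4 also without pol2a library 2 or 3. An antisense RNA spans 81.6% of ABF4.

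Of 10 salicylic acid genes, SAG101, an immune lipase-like protein gene, was called alone, at 9.03, 10.4 and 11.2 CPM in pol2a libraries, against 6.59, 7.11 and 5.96 CPM in Col0 libraries (log2 fold change 0.64 ± 0.15, edgeR adjusted p = 0.027), and it passed with all libraries and without pol2a library 1 but not without any other. Of 11 jasmonate and defensin genes, PR4 was called, at 22.4, 27.6 and 22.7 CPM in pol2a libraries, against 6.21, 9.52 and 8.91 CPM in Col0 libraries (log2 fold change 1.56 ± 0.24, edgeR adjusted p = 0.00251), and 3 were called without pol2a library 3 or without Col0 library 3. With the replicate number as a block, 1 gene was also lower. The defensin genes PDF1.2, PDF1.2c and PDF1.3, near-identical copies, had log2 fold changes of 3.13, 2.30 and 2.84 in pol2a, not past the threshold.

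Photosynthesis, clock, vascular, root and heat shock lists had 0 calls in edgeR with all libraries, where DESeq2 called 1 vascular gene, XCP1. The 22 photosynthesis genes had a median of 0.03. RBCS1B, a Rubisco small subunit, had the smallest p of them, at 931, 654 and 668 CPM in pol2a libraries, against 682, 508 and 663 CPM in Col0 libraries (log2 fold change 0.28 ± 0.23, edgeR adjusted p = 0.549). Over all genes, 3865 had an unadjusted p below 0.05. The clock gene PRR5 was at 21.8, 72.5 and 87.2 CPM in pol2a libraries, against 16.8, 37.9 and 36.4 CPM in Col0 libraries, with library 1 lowest in both groups (log2 fold change 1.00 ± 0.47, edgeR adjusted p = 0.252). XCP1, a protease of xylem cells, was at 33.7, 26.3 and 24.9 CPM in pol2a libraries, against 19.1, 15.9 and 20.5 CPM in Col0 libraries (log2 fold change 0.61 ± 0.17, edgeR adjusted p = 0.057). CASP1 (0.99) and HSP90.1 (0.34) had the smallest p of the root and heat shock lists, with edgeR adjusted p = 0.182 and 0.356.

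The gene with the largest rise among those named by size was MRD1 (AT1G53480, chromosome 1, 19963047 to 19964712, minus strand), at 43.8, 41.6 and 40.7 CPM in pol2a libraries, against 0.454, 0.138 and 0.226 CPM in Col0 libraries (log2 fold change 7.24 ± 0.34, edgeR adjusted p = 7.98e-08). HEI10, a meiotic crossover gene that lies across it on the opposite strand, was at 5.64, 7.99 and 9.16 CPM in pol2a libraries, against 2.50, 2.00 and 1.13 CPM in Col0 libraries (log2 fold change 2.01 ± 0.26, edgeR adjusted p = 7.32e-04). They share 1446 bases, and since the labels do not state whether counting used strand, their reads cannot be assigned with certainty. In the ld pair MRD1 was at 38.2, 47.5 and 49.6 CPM in ld pol2a libraries, against 28.0, 33.2 and 50.3 CPM in ld libraries (log2 fold change 0.28 ± 0.19, edgeR adjusted p = 0.288), so that Col0 alone was near 0 among the 4 genotypes.

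The kinase gene SIP4 was at 40.4, 40.2 and 35.5 CPM in pol2a libraries, against 7.42, 8.35 and 9.44 CPM in Col0 libraries (log2 fold change 2.202 ± 0.14, edgeR adjusted p = 1.19e-06). NAC103, a NAC factor gene of the damage response, was at 7.01, 8.36 and 7.64 CPM in pol2a libraries, against 1.44, 1.86 and 1.74 CPM in Col0 libraries (log2 fold change 2.18 ± 0.20, edgeR adjusted p = 4.18e-05). An antisense RNA spans 97.6% of SIP4, with a mean under 1 CPM in both groups. Of called genes without a symbol, AT2G18193 (chromosome 2) and AT5G60250 (chromosome 5) were picked after their values were seen. AT2G18193 was at 27.9, 29.8 and 34.7 CPM in pol2a libraries, against 0.379, 0.276 and 0.453 CPM in Col0 libraries (log2 fold change 6.36 ± 0.25, edgeR adjusted p = 1.75e-08). AT5G60250 was at 32.6, 30.3 and 33.0 CPM in pol2a libraries, against 0.757, 0.759 and 0.604 CPM in Col0 libraries (log2 fold change 5.48 ± 0.17, edgeR adjusted p = 2.30e-09). All 6 libraries of each gene were separated by group.

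Of the genes higher in pol2a apices a larger share recurred in the ld pair than of the lower ones. In ld pol2a over ld, edgeR called 3415 genes higher (18.3%) and 2948 lower (15.8%), 34% in all. Of the 693 genes higher in pol2a, 485 (70.0%) were higher there too and 11 lower. Those 485 were 14.2% of the 3415. Of the 436 lower in pol2a, 139 (31.9%) were lower there and 37 higher, and the 139 were 4.72% of the 2948. Over the 18705 genes the log2 fold changes of both pairs had a Pearson's r of 0.418 (Spearman's rho 0.397), a description across genes that are no independent replicates. Without ld pol2a library 2 the pair gave 2150 higher and 1712 lower genes, without ld pol2a library 3 it gave 2195 and 1760, without ld library 2 there were 2142 higher, and without ld library 1 there were 1831 lower.

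The damage response was among what recurred. SMR7 was at 13.5, 17.35 and 15.2 CPM in ld pol2a libraries, against 0.334, 0.447 and 0.564 CPM in ld libraries (log2 fold change 5.08 ± 0.22, edgeR adjusted p = 3.45e-08), and TSO2 at 766, 915 and 869 CPM in ld pol2a libraries, against 72.0, 71.7 and 61.1 CPM in ld libraries (log2 fold change 3.64 ± 0.13, edgeR adjusted p = 1.06e-08). Of the checkpoint list 8 of 12 were higher in ld pol2a over ld and 0 lower, and of the repair list 12 of 22 were higher and 3 lower. For the checkpoint list the limit set by the filter on low counts holds here too. No member of these 2 lists had a called difference between the effects (0 of 34). For polymerase and licensing genes, 13 of 20 were higher in ld pol2a over ld, and the difference passed for 2, among them PCNA1 (0.91 ± 0.23, edgeR adjusted p = 0.0334), whose call was lost without Col0 library 1, ld library 2, or library 2 or 3 of pol2a or ld pol2a.

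The difference between the effects passed for 1410 genes, 959 (5.13%) higher and 451 (2.41%) lower, 7.54% in all. Among the 436 genes lower in pol2a, 164 had a called difference, 152 of them toward a smaller fall or a rise. Among the 693 higher, 74 had one, 54 of them toward a smaller rise or a fall. The same libraries enter the calls and the differences, so these are not independent. The count of 1410 ranged from 494 without ld pol2a library 2 to 3619 without ld library 3. FLC was one of these genes: it was at 75.5, 90.0 and 95.7 CPM in ld pol2a libraries, against 61.4, 62.5 and 116 CPM in ld libraries (log2 fold change 0.12 ± 0.23, edgeR adjusted p = 0.712), with a difference of 1.89 ± 0.41, edgeR adjusted p = 0.0189. That call was lost without Col0 library 1, pol2a library 3 or ld pol2a library 2 or 3. SOC1 was at 2.18, 2.29 and 2.44 CPM in ld pol2a libraries, against 1.27, 2.31 and 2.19 CPM in ld libraries (log2 fold change 0.27 ± 0.21, edgeR adjusted p = 0.341).

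**Figure D5:**
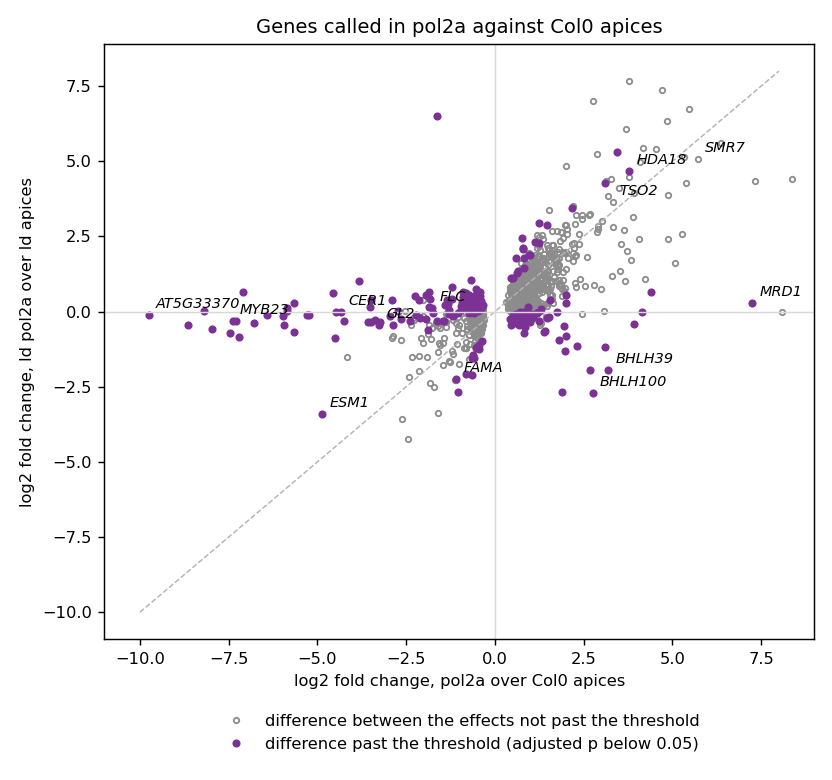
Log2 fold changes of the 1129 genes called in pol2a over Col0 apices (horizontal axis) against those of ld pol2a over ld apices (vertical axis), which share no library; purple points passed the test of the difference between the effects and the dashed line marks equal changes. Higher genes such as SMR7 and TSO2 lie near the line, while many strongly lower genes such as CER1, MYB23 and AT5G33370 lie near 0 on the vertical axis.

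Whole seedlings of the same 2 genotypes, 3 libraries each from another set, were looked at for the named genes. Their deposited values, scaled to a spike-in by the authors, were rescaled by median-of-ratios size factors to match the relative scale of the apex counts. They lacked 1 of 8 directions of variation within groups (0.0102% of that variance, against 2.24% or more for every direction in apices), so their p-values are too small. limma called 5841 genes higher (30%) and 5806 lower (29.9%), 59.9% of 19444. On the deposited spike-in scale it called 6620 higher and 4896 lower. Of the apex genes tested there, 419 of 651 higher genes (64.4%) were higher in seedlings and 78 lower, against a share of 31.2% higher over all genes in both. Of 417 lower genes, 150 (36.0%) were lower and 124 higher, against 29.3% lower over all.

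All 12 of the largest rises were called higher in seedlings, among them TSO2 (log2 fold change 2.74) and HDA18 (3.41). Of the 12 largest falls, 8 were lower and 3 higher. GLC (-5.76) and CER1 (-3.57) fell in seedlings as well, GL2 by a log2 fold change of -2.35, while ESM1 was higher (0.81). The iron regulators BHLH100, BHLH101 and BHLH39, higher in pol2a apices, were lower in seedlings (-1.37, -1.65 and -0.74). BHLH38 was not called there (0.36). FLC and MAF5 were lower in seedlings too (-3.09 and -0.67), and AGL24 was higher (0.85). AG, SEP1, SEP2 and SEP3 were higher as well (3.56, 3.60, 3.42 and 3.21). SOC1 (-0.20) and MAF4 (-0.05) were not called there.

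The share of counts from chloroplast-encoded genes was higher in every pol2a library than in any Col0 library, while the mitochondrial share overlapped. Together they made up 1.27%, 0.858% and 0.739% of counts in pol2a libraries, against 0.517%, 0.418% and 0.568% in Col0 libraries. The groups did not overlap, with a mean difference of 0.456 percentage points (0.298 without pol2a library 1). By exact permutation (two-sided) p was 0.1, below which a design of 3 against 3 cannot go. The chloroplast share averaged 0.819% ± 0.252 in pol2a and 0.372% ± 0.0607 in Col0 libraries, and the mitochondrial share averaged 0.138% ± 0.0313 in pol2a and 0.129% ± 0.0171 in Col0 libraries (SD, n = 3 each; exact permutation p = 0.1 for the chloroplast and 0.8 for the mitochondrial share). Of 90 chloroplast-encoded genes tested, 10 were higher and 0 lower, and their median log2 fold change was -0.12. The part of the chloroplast share in the other results was not tested.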

How the data were processed

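RNA of dissected shoot apices was sequenced after NEBNext Ultra II library preparation, per the labels' protocols. The authors deposited whole-number counts per gene. The submitters' processing notes name Trimmomatic 0.38, HISAT2, SAMtools 1.9, featureCounts, deepTools, DESeq2 and the build TAIR10, with no strand setting stated. The seedling values deposited by the authors are a spike-normalised signal, per the file headers, and not counts, so they were rescaled by median-of-ratios size factors and tested as log2(value + 1) with limma 3.58.1 after requiring a mean of 10.

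Counts of all 12 apex libraries were fitted together with edgeR 4.0.16 (R 4.3.3), with TMM scaling, edgeR's expression filter and the quasi-likelihood test, and 18705 of 33562 genes were tested. Contrasts were pol2a against Col0, ld pol2a against ld, and their difference. A gene was called below a Benjamini-Hochberg adjusted p of 0.05. The fit was tested on simulated counts. Genes named are the 12 largest called rises and falls that have a symbol, average 50 reads or more and show no overlap between groups, up to 4 called members per direction of each list (the member with the smallest p where none was called), POL2A, LD, FLC, SOC1 and FT, the 4 genes with the smallest p for the difference, and those said to be picked later. Members of lists named beyond these were also picked after their values were seen. For genes named by the size of their change, statements that the groups did not overlap restate this rule. For other called genes such statements add nothing to the call. The lists and members were chosen with earlier results of these data known.

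The deviations of same-numbered pol2a and Col0 libraries from their group means correlated at 0.299, 0.423 and 0.239, so the numbers pair these libraries. No replicate pair agreed within sampling noise (chi-square per degree of freedom 3.26 to 64.1). Intervals cover counting error only. Alternatives were DESeq2 size factors, DESeq2 1.42.0, no filter, the replicate block, the 6 compared libraries alone and leaving out each library, and for seedlings the deposited spike-in scale, a pseudocount of 5 and no filter. Positions are from RefSeq TAIR10.1. The other seedling sets are not used here, and some list members are not reported here.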

Additional observations from a re-analysis of the deposited data

Results flagged for a closer look

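The change of ld pol2a over ld differed from that of pol2a over Col0 by edgeR's test of the difference for 1410 genes. A pol2a effect that depends on ld cannot be told apart here from other differences between these lines. Values below are that difference on the log2 scale, ld pol2a over ld less pol2a over Col0, and each passed an adjusted p of 0.05. No explanation was tested.

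Among genes of the trichome and cuticle it was 2.80 for GL2, 7.06 for MYB23, 1.70 for GL1, 1.22 for TTG2, 1.17 for MYB106, 4.32 for CER1, 4.47 for CYP86A4, 2.41 for CYP77A6 and 1.28 for KCS5. For other genes that fell in pol2a it was 7.37 for GLC, 5.12 for PME61, 2.08 for PRP2, 1.88 for SAT32, 8.21 for AT2G33850 and 9.64 for AT5G33370. ESM1 had 1.46. The fall was smaller in the ld pair and still called for ESM1 (-3.41), GLC (-0.59) and KCS5 (-0.62). The ESM1 and MYB106 differences were lost under 3 and 5 of 16 alternatives. FAMA and TGG1 had -1.16 and -1.62, where the fall was larger in the ld pair.

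The iron regulators BHLH39, BHLH38, BHLH100 and BHLH101 had -5.13, -4.28, -5.48 and -4.58. MRD1 and the overlapping HEI10 had -6.97 and -1.74. HDA18, NAC103 and PCNA1, which rose in both pairs, had 0.89, 1.26 and 0.91, calls lost under 13, 6 and 6 of 16 alternatives. FLC had 1.89 and VRN5 0.80, lost under 4 and 7 of 16, for FLC without Col0 library 1, pol2a library 3 or ld pol2a library 2 or 3. QQS, which did not pass in pol2a over Col0, had 3.90, with 6.08, 5.67 and 5.72 CPM in ld pol2a libraries, against 0.401, 0.372 and 0.141 CPM in ld libraries.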

How the results depend on the processing

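Of 78 named genes called in pol2a over Col0, 59 kept their call and direction under all alternatives and 19 lost the call under at least 1. Of 9 not called, XCP1 was called by DESeq2. LD, not called, was -0.15 with all libraries and ranged from -0.28 to 0.045 when 1 library was left out, with the positive value without pol2a library 1. The counts of 693 higher and 436 lower genes ranged from 328 to 591 and from 176 to 345 when 1 library was left out. DESeq2 gave 692 lower genes, and the 6 compared libraries alone 227. The ld pair ranged from 2142 to 4138 higher and from 1712 to 4303 lower genes, and the difference between effects from 494 to 3619 genes. Of 30 named genes with a called difference between effects, 23 kept it under all 16 alternatives, while it was lost for HDA18 in 13, VRN5 in 7, NAC103 and PCNA1 in 6 each, MYB106 in 5, FLC in 4 and ESM1 in 3. On the deposited spike-in scale seedlings gave 6620 higher and 4896 lower genes, in place of 5841 and 5806. The causes of these shifts were not tested.

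With the replicate number as a block, 910 genes were higher and 561 lower in pol2a, TRY lost its call, 4 polymerase and licensing genes were called in place of 3 (CDC6 added), and beyond the list counts given above no call of a gene named by the rule changed. This block was fitted over all 12 apex libraries at once, so it is no paired test of pol2a against Col0 alone. The adjusted p-values printed for apices are from the fit without the block. The numbers did not pair the ld libraries (0.55, -0.246 and 0.392) or the seedlings. There the block gave 3844 higher and 3366 lower genes for the ld pair, 1915 differences between effects, and 5594 higher and 5559 lower genes for seedlings. Depth limits genes of a few reads, such as AG, SEP1 and SMR5, to counts.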
